A study of Homo sapiens with 18 samples.

Results

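The Mediator complex genes are the protein-coding genes of the human RefSeq annotation whose symbol is MED followed by a number, with an optional L, together with CDK8, CDK19 and CCNC. They number 33 of the 19974 protein-coding genes on chromosomes 1 to 22 and X, and every one was matched by symbol. A MAX peak was assigned to a gene where its summit, the base of highest signal, lay inside the gene or within 2500 bp of an outer gene end. The series mapped MAX, the DNA-binding partner of MYC, by chromatin immunoprecipitation and sequencing with a reference genome added (ChIP-Rx). The cells were U2OS, an established human osteosarcoma line, made deficient in MYC by knockout and given MYC on a doxycycline (Dox) controlled Tet-On promoter, either as wild type (WT) or as a mutant that the labels call 3A or 7A. All groups thus share the MYC knockout, and the MYC they carry is exogenous. Cells received 1 ug/mL Dox over 24 h, or PBS over the same 24 h as the no Dox group, and 10% NIH3T3 mouse cells were mixed in. The labels list 18 libraries: 6 inputs, and 12 immunoprecipitations of MAX with 2 biological replicates for each of 6 groups. The sources used here do not say what was changed in 3A and 7A, or whether each line is 1 clone.

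The values come from 3 peak lists that the authors deposited, 1 per MYC form, with 34622 peaks for WT, 27294 for 3A and 25159 for 7A. Nothing in a list separates Dox from no Dox or one replicate from the other, and sequencing depth is unknown. The antibody field of the labels names MAX, while their protocol text describes an anti-FLAG antibody; the field was followed. Each value therefore has no replicate error, no test between MYC forms was possible, and differences are given as descriptions of these lists. Fold enrichment is the authors' linear ratio at a summit, of the signal over a control that the sources used here do not name. The name of each list carries its MYC form with a plus and with a minus sign, and whether Dox libraries were set against no Dox ones is not stated. A fold may therefore stand for enrichment over background or for Dox over no Dox, and these cannot be told apart here. Since its scale may differ between lists, it was ranked within each list: rank 1 is the highest fold, and a percentile is the share of the peaks of that list with a lower fold.

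Mediator is a large complex that carries signals from DNA-bound transcription factors to RNA polymerase II at promoters. Its head and middle modules contact the polymerase, its tail binds activators, MED14 is the scaffold that joins these modules, and a separable kinase module of CDK8 or CDK19, cyclin C, MED12 and MED13 or their paralogs binds reversibly and limits polymerase binding. MAX binds DNA as a heterodimer with MYC or with other partners, at the E-box letters CACGTG and at related letters.

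Promoter windows of 300 bases, from 250 bases before to 50 bases after a RefSeq transcription start (GRCh38.p14), are shown for 6 starts, read 5′ to 3′ on the gene's strand. Positions relative to a start run in the direction of the gene, with 0 at the start base and negative values before it. MED31 had the highest fold of any Mediator gene in every list, and MED12 was the gene whose presence differed between lists. CDK8, CDK19, MED4 and BYSL, whose start carries the MED20 peak, were picked after the motif search for having a summit near a match. Capitals mark a match, on either strand, to the E-box letters CACGTG or to the related letters CACGCG and, for CDK19, CATGCG. CDK8 (chr13:26253879-26254178, plus strand) and BYSL (chr6:41921249-41921548, plus strand) hold CACGTG. The second of 3 CDK19 starts (chr6:110815588-110815887, minus strand) holds CATGCG, read here as CGCATG. MED4 (chr13:48095055-48095354, minus strand) holds CACGCG, read here as CGCGTG. The windows of MED31 (chr17:6651556-6651855, minus strand) and MED12 (chrX:71118346-71118645, plus strand) hold none of the letters searched.
CDK8: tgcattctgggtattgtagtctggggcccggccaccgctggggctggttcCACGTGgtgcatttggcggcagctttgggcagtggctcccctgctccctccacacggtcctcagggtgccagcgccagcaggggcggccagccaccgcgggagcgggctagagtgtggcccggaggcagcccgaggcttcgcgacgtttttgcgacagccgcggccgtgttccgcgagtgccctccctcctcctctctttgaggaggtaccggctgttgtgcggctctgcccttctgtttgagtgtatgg
BYSL: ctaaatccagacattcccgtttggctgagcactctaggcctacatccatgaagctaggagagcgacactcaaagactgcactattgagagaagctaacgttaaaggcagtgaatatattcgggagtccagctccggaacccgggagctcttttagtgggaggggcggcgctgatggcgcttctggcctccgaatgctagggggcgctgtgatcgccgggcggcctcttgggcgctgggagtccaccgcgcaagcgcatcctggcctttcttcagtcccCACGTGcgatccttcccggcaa
CDK19: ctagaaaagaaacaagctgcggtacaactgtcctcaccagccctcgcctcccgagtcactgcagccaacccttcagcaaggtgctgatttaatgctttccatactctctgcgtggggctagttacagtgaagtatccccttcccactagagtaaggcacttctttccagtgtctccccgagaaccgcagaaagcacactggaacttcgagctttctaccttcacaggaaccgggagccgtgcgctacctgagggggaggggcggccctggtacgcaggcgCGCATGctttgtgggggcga
MED4: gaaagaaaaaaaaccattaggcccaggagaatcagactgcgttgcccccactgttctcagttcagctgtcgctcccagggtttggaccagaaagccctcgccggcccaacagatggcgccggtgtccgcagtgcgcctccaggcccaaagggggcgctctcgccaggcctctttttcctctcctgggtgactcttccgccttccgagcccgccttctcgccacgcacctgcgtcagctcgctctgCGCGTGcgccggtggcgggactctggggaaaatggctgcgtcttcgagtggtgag
MED31: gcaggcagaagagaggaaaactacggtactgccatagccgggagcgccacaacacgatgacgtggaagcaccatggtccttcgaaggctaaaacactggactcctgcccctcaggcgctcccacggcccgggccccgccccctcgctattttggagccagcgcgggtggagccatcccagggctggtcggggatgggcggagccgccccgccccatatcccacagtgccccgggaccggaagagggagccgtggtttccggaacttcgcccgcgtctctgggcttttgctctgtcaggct
MED12: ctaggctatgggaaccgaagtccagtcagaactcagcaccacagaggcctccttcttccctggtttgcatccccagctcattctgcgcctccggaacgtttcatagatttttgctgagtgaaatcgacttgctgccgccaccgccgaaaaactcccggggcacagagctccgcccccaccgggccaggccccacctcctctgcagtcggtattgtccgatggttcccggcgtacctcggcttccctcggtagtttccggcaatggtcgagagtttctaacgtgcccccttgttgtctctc

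The first question was how many Mediator genes carried MAX. Nearly all did: 32 of 33 in the WT list, 31 in the 3A list and 32 in the 7A list, and 31 had a peak in all 3 lists. As shares these are 97.0% for WT (exact Clopper-Pearson 95% interval 84.2 to 99.9%), 93.9% for 3A (79.8 to 99.3%) and 97.0% for 7A. The intervals cover counting error over genes only. Among all protein-coding genes 70.8% had a peak in WT, 67.7% in 3A, 66.7% in 7A and 65.7% in all 3, so the Mediator shares lay above the background in each list. The median length of the Mediator genes was 22096 bp (range 2180 to 350990 bp), against a median of 24170.5 bp over all protein-coding genes. Shares among genes of matched length were not computed, and whether gene length bears on the gap was not tested. With the peak required within 1000 bp of a RefSeq start, 24 of 25 Mediator genes in the promoter table had one in WT, 23 in 3A and 24 in 7A, against 61.9%, 60.1% and 59.3% of all 15813 genes in that table. The bars of the share of genes with a peak show the same gap.

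**Figure D1:**
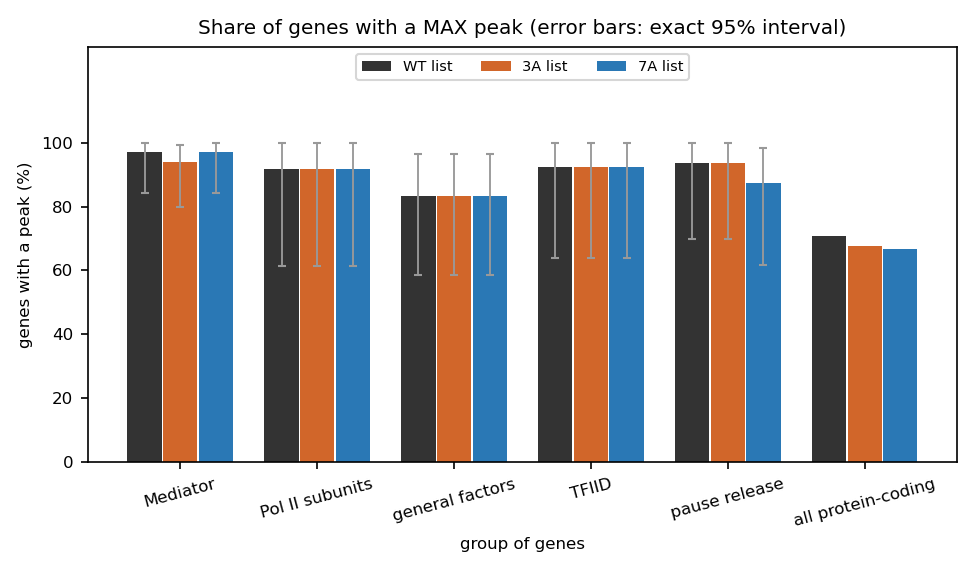
Share of genes with a MAX peak by the gene rule (vertical axis, percent) for the Mediator genes, 4 lists of other RNA polymerase II factors and all protein-coding genes (horizontal axis), with 1 bar per peak list and exact 95% intervals as error bars. The Mediator bars stand at 97.0%, 93.9% and 97.0%, and those of all genes at 70.8%, 67.7% and 66.7%.

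Only MED27, a subunit between head and tail (chr9:131860112-132079867), had no peak in any list, as had 28.5% of all protein-coding genes. Its nearest WT summit lay 5541 bp from the gene with a fold of 6.84, and the nearest 3A and 7A summits lay 29006 and 29015 bp away. Only MED12, the subunit that activates the CDK8 kinase (chrX:71118596-71142450), had a peak in WT and none in 3A, against 5.1% of all genes with a WT peak. Its WT summit lay at −68 from the start with a fold of 8.10 (rank 23071), and its 7A summit at −75 with 10.4 (rank 13542). The nearest 3A summit was 22862 bp from the gene. By −log10 q the WT peak of MED12 ranked 28799 of 34622, and when every list was reduced to the length of the shortest, keeping the highest −log10 q, it was no longer in WT either. No Mediator gene with a WT peak lacked one in 7A, against 6.35% of all such genes. At the edge of the 2500 bp window, the last summits inside were those of MED26 at 2388 to 2398 bp and MED31 at 2269 to 2278 bp, and the first outside those of MED29 at 3101 bp (3A), MED29 at 3109 bp (WT) and MED14 at 3111 bp (WT).

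The strength of the peaks at Mediator genes was set against that at all genes with a peak. The strongest peak per gene had a median fold that stood at 15.6 in WT, 17.2 in 3A and 12.5 in 7A, against 17.7, 15.5 and 14.99 over all genes with a peak. As list percentiles these medians were 69.3 against 74.7 in WT, 76.3 against 71.0 in 3A and 57.8 against 68.5 in 7A. By fold they were thus below the median gene in WT and 7A and above it in 3A. Ranked by −log10 q, the Mediator medians were 70.3 in WT, 68.4 in 3A and 54.7 in 7A, so 3A was then not above WT. No median over all genes was computed for that ranking. The peaks were narrower than those of the median gene in every list, with median widths of 734 against 947 bp in WT, 706 against 831 bp in 3A and 754.5 against 898 bp in 7A. Among the members the range was wide, from a percentile of 11.4 to 98.4 in WT, 6.36 to 99.9 in 3A and 7.19 to nearly 100 in 7A.

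**Figure D2:**
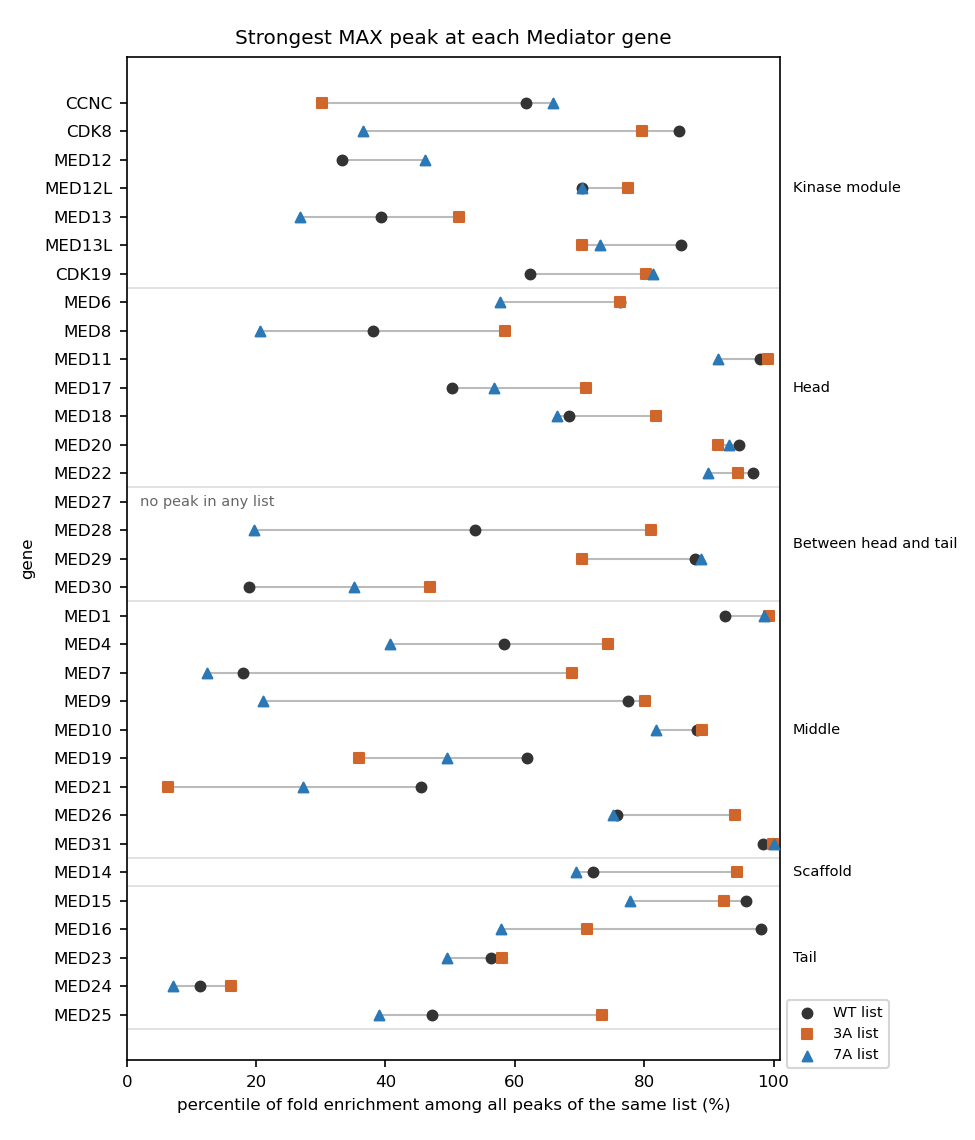
Strongest MAX peak at each of the 33 Mediator genes, grouped by module (vertical axis), placed by the percentile of its fold enrichment among all peaks of the same list (horizontal axis, percent), with 1 marker per list and a grey line joining the lists. MED31, MED11, MED22, MED20 and MED1 sit far to the right in all lists, while CDK8 and MED9 are far lower in 7A and MED7 and MED28 far higher in 3A.

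The kinase module held the gene that differed in presence, MED12, and a pair of paralogs, CDK8 and CDK19, whose ranks went opposite ways in 7A. All 7 of its genes had a peak in WT and 7A, and 6 in 3A. CDK8, the kinase itself (chr13:26254129-26405238), had a single peak in each list, with a fold of 24.7 in WT (rank 5058), 18.6 in 3A (rank 5568) and 9.08 in 7A (rank 15951). The summits lay at −192 in WT, −185 in 3A and −198 in 7A, at the CACGTG printed above. CDK8 thus stood in the upper part of the WT and 3A lists, at percentiles of 85.4 and 79.6, and at 36.6 in 7A. By −log10 q the order was the same, at ranks 7944, 10863 and 15262. Its paralog CDK19 (chr6:110609978-110815855) went the other way, with 13.4 in WT (rank 13012), 18.9 in 3A (rank 5397) and 19.9 in 7A (rank 4686). By −log10 q CDK19 ranked 10933, 6122 and 6019. The CDK19 summits lay 38, 9 and 28 bases after the second start, beside the CATGCG letters 30 bases after it. In WT and 7A they were also within 1000 bp of AMD1, a gene of polyamine synthesis.

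CCNC, which encodes the cyclin C partner of both kinases, had 13.3 in WT, 8.30 in 3A and 14.3 in 7A, at percentiles of 61.8, 30.2 and 65.9. It was low in 3A and alike in the other lists. MED13, which links the kinase module to the core complex, had its strongest peak beyond the high end of the gene, with 8.93 in WT, 11.2 in 3A and 7.88 in 7A, and a second 3A peak of 11.0 inside the gene had no partner in WT or 7A. Its paralog MED13L (chr12:115958576-116277693) held 7 WT, 5 3A and 6 7A peaks, which no other Mediator gene exceeded in any list and MED15 equalled in 3A and 7A. The strongest WT peak of MED13L, with a fold of 25.0, lay inside the gene 315217 bases after the start, had a 7A partner of 8.84 and no 3A partner. At the MED13L start the order was reversed, with 10.8 in WT, 15.3 in 3A and 14.9 in 7A. MED12L, the paralog of MED12 (chr3:151085664-151436653), had 16.0 in WT, 10.2 in 3A and 15.6 in 7A at the site around its start. There the WT summit lay 677 bases after the start, and the 3A and 7A summits at −211 and −207. A weaker 3A peak of 3.79 lay 648 bases after the start. A second MED12L site inside the gene, 219555 bases after the start in WT, had folds of 12.0, 17.7 and 10.8. Which of these sites was the stronger thus differed between 3A and the other lists.

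The head module had a peak at all 7 genes in every list, and 3 of them were among the strongest Mediator genes. MED11 (chr17:4731428-4733607), a small head subunit, had a summit 428 bases after its start in WT, with a fold of 58.2 (rank 720). The same site had 63.7 in 3A (rank 232) and 28.2 in 7A (rank 2161), and a weaker peak at −617, with 11.6, was in WT alone. MED11 was thus near the top of WT and 3A and less so in 7A, at a percentile of 91.4. MED22 (chr9:133338312-133348131) lies between SURF6 and RPL7A, and its peaks sat within 1000 bp of those neighbours' starts. The peaks on the RPL7A side also lay 178 to 199 bp beyond an outer end of MED22 itself. At the SURF6 side, a gene of ribosome assembly, the folds were 50.2 in WT, 18.4 in 3A and 25.1 in 7A. At the RPL7A side, a ribosomal protein gene, they were 37.3, 33.4 and 26.3. The SURF6 site was the stronger in WT and the RPL7A site in 3A and 7A. MED20 (chr6:41905354-41921139) shared its peak with the start of BYSL, another ribosome assembly gene, with 39.9 in WT (rank 1853), 27.9 in 3A (rank 2350) and 31.0 in 7A (rank 1736). Its summits lay 32, 32 and 28 bases after the BYSL start, at the CACGTG that begins 28 bases after it, and by −log10 q ranked 362, 519 and 589.

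The other head genes were of middle or low rank. MED17, a central head subunit, had 10.7 in WT, 15.5 in 3A and 12.3 in 7A. MED18 had 15.2, 19.7 and 14.5, with summits between −177 and −162. Both thus ranked highest in 3A. MED6 had 18.4, 17.2 and 12.5, and MED8 had 8.74, 12.5 and 7.13. MED8 was the weakest of the head genes in every list.

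Of the 4 genes between head and tail, MED27 had no peak and the other 3 had one in every list. MED29 (chr19:39391378-39400641) was strongest 1966 to 2005 bp beyond its downstream end, with a fold of 27.3 in WT (rank 4202), 15.3 in 3A (rank 8070) and 25.1 in 7A (rank 2834). At its start, shared with PAF1, which encodes an elongation factor subunit, the folds were 8.49, 7.90 and 11.8. By fold MED29 was thus lowest in 3A at both sites, clearly so at the downstream one, while at the start WT was nearly as low. MED28 had 11.4 in WT, 19.4 in 3A and 7.02 in 7A, at list percentiles of 53.9, 81.1 and 19.6, and stood apart in 3A by fold. By −log10 q the 3A percentile of MED28 was 56.4, below its WT value of 61.2. MED30 was weak in all, with 6.27, 10.5 and 8.90.

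The middle module had a peak at all 9 genes in every list and held the strongest Mediator peak of all. MED31 (chr17:6643311-6651605), a small and conserved middle subunit, had a fold of 64.6 in WT (rank 544), 125.8 in 3A (rank 27) and 347.1 in 7A, where it was rank 1 of the whole list. Its summits lay at −523, −527 and −527 from the MED31 start, beyond the window printed above, and within 1000 bp of an outer end of C17orf100. By −log10 q, the authors' measure of confidence, the peak ranked 586 in WT, 41 in 3A and 15 in 7A. By both measures, the lists thus had the same order from 7A down to WT. A second site at MED31, near the starts of TXNDC17 and KIAA0753 and 2269 to 2278 bp beyond the gene, had folds of 17.9, 17.5 and 13.8 and did not share that order.

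MED1 (chr17:39404285-39451263), the subunit contacted by nuclear receptors, was strongest at the start of its neighbour FBXL20, with 34.6 in WT (rank 2592), 66.2 in 3A (rank 204) and 56.2 in 7A (rank 374). At the MED1 start itself, with summits between −150 and −137, the folds were 14.6, 17.3 and 27.7, at ranks 11591, 6391 and 2258. Both sites ranked higher in 3A and 7A than in WT. MED26 (chr19:16574919-16628204), which recruits elongation factors, was strongest inside the gene in WT, with a fold of 18.2. In 3A and 7A its strongest peak was at the start of SLC35E1, with 32.1 and 17.1, where WT had 17.1. The MED26 start had 8.22 in WT, 9.24 in 3A and 12.8 in 7A, so the 3A value of MED26 rests on its neighbour's start.

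MED9 (chr17:17477000-17493221) had 19.1 in WT (rank 7792), 18.9 in 3A (rank 5417) and 7.19 in 7A (rank 19858), with summits between −29 and −14 in all lists. MED9 stood low in 7A alone; by −log10 q it ranked 7011, 5338 and 11544. MED7, which forms the hinge of the middle module with MED21, had at its start 5.99 in WT, 14.9 in 3A and 6.12 in 7A, and its WT-only peak at −915 had 6.17. At its start MED7 stood higher in 3A than in the other lists by fold and by −log10 q. By −log10 q the percentiles of the start peak were 30.7 in WT, 57.2 in 3A and 27.2 in 7A. Its partner MED21 had 9.87, 5.24 and 7.93, at percentiles of 45.4, 6.36 and 27.3, and was lowest in 3A, where MED7 was highest. MED4 had 12.4, 16.6 and 9.63, with summits at −22, −32 and −37 and its CACGCG beginning at −5. MED10 had 27.7, 24.9 and 20.2, and MED19, at a start shared with TMX2, had 13.3, 9.04 and 11.0.

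MED14, the scaffold (chrX:40648305-40736159), had a fold of 16.6 in WT (rank 9683), 33.0 in 3A (rank 1537) and 15.3 in 7A (rank 7682), with summits inside the gene, at −326, −306 and −327 from its high end. It stood higher in 3A than in the other lists, at list percentiles of 72.0 (WT), 94.4 (3A) and 69.5 (7A). A second site at the other end, near CXorf38, had 9.00, 11.1 and 7.97. By −log10 q the main peak of MED14 ranked 8660 in WT, 5108 in 3A and 7885 in 7A, so its 3A place was higher by both measures, by less in −log10 q.

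All 5 tail genes had a peak in every list, and the strongest lay inside the genes rather than at their starts for MED15 and MED16. MED16 (chr19:867963-893187) had a peak 9348 bases after its start with a fold of 60.4 in WT (rank 651). The same site had 15.6 in 3A (rank 7861) and 12.5 in 7A (rank 10596), so that it was strong in WT alone. By −log10 q the MED16 site ranked 4867 in WT, 11488 in 3A and 12326 in 7A. At the MED16 start the folds were 9.20, 9.61 and 9.60, nearly level between lists. MED15 (chr22:20507610-20587619), the activator-binding subunit that meets SREBP and SMAD factors, had a site 61086 bases after the nearest start with 43.9 in WT (rank 1486), 29.4 in 3A (rank 2082) and 18.1 in 7A (rank 5584). At the first MED15 start the folds were 11.9, 7.46 and 4.02, in the same order, and a peak of 8.00 inside the gene was in 7A alone. MED25, the subunit that the viral activator VP16 binds, had 10.2 in WT and 16.3 in 3A at a site before its start, at −806 and −810, where 7A had 9.12. At the MED25 start itself the folds were 6.38, 9.00 and 9.41. MED23, a target of the activator ELK1, had 12.0, 12.4 and 11.0. At its start MED24 had 4.66, 6.58 and 5.34, and a WT-only peak inside the gene had 5.36, the lowest strongest peak of any Mediator gene in WT. MED25 thus stood highest in 3A at the site before its start and not at the start itself, while MED23 was at percentiles of 56.3, 58.1 and 49.6.

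To set the lists side by side at equal size, each gene's strongest peak was ranked among the 13113 genes with a peak in all 3 lists, and a gene percentile was read from that rank. The 31 Mediator genes so ranked had median gene percentiles at 40.1 (WT), 56.3 (3A) and 36.5 (7A), against 49.97 to 49.99 over all genes. From WT to 3A, 21 stood higher and 10 lower, with a median of 9.07 points against 0.29 over all genes. By at least 25 points, 9 stood higher in 3A (MED14, MED7, MED28, MED26, MED25, CDK19, MED17, MED18 and MED4), against 12.2% of all genes, which is 29.0% of the Mediator genes. Lower by as much was MED16 alone, against 12.5% of all genes. The gains ran up to 45.3 points at MED14, 42.2 at MED7 and 41.6 at MED28.

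That count depended on the measure ranked. With genes ranked by −log10 q in place of fold, MED7 alone was at least 25 points higher in 3A, or 3.23% of the Mediator genes against 4.93% of all genes. A count for 3A above the background was therefore a property of the fold column and not of the confidence column. MED16 alone was lower in 3A by both columns, against 6.06% of all genes by −log10 q.

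Between WT and 7A the Mediator genes did not move as a group, with 15 higher, 16 lower and a median of −0.11 points. By at least 25 points only CDK19 stood higher, by 36.8, against 12.4% of all genes. Lower by as much were MED16 (−58.2 points), CDK8 (−47.6), MED9 (−43.4) and MED15 (−26.6), or 12.9% of the members against 12.4% of all genes, a share near the background. By −log10 q CDK8 and MED16 were still lower by 25 points, 6.45% of the members against 6.7% of all genes, and none was higher, against 6.72%. The comparisons of 3A and 7A share the WT list, so the 2 sets of values are not independent. The positions of MED16, CDK8 and CDK19 at the edges are seen in the plot of rank changes.

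**Figure D3:**
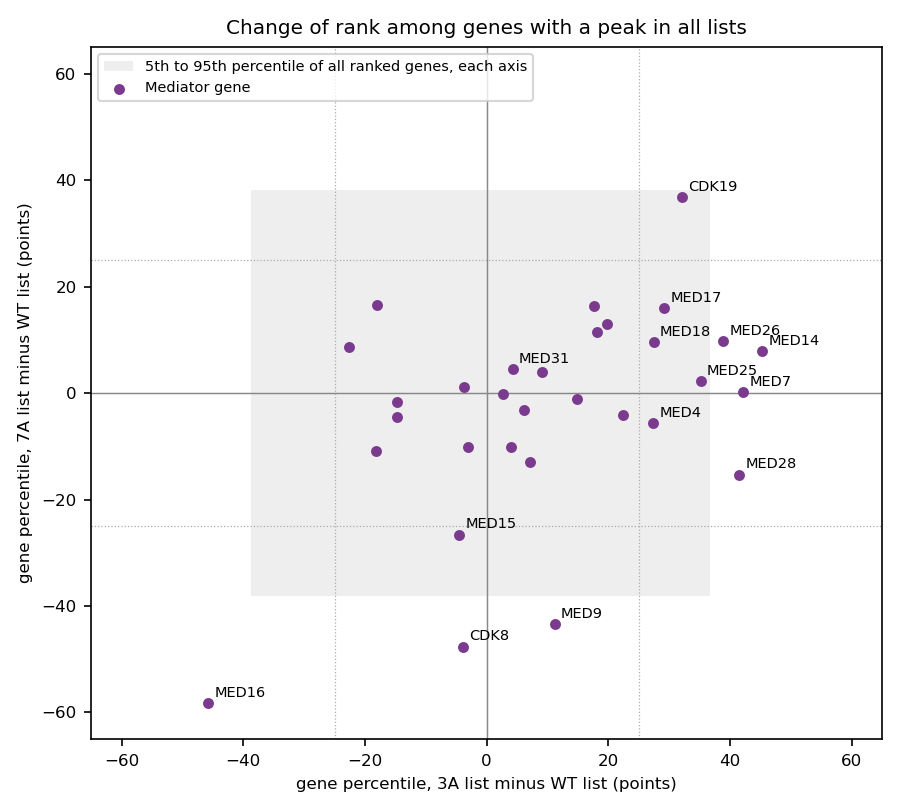
Change of gene percentile from the WT list to the 3A list (horizontal axis, points) and to the 7A list (vertical axis, points) for the 31 Mediator genes with a peak in all lists, with the 5th to 95th percentile of all 13113 ranked genes shaded on each axis. MED16 lies at −45.8 and −58.2, CDK8 at −3.95 and −47.6, and CDK19 at 32.1 and 36.8, while MED14, MED7, MED28 and MED26 lie beyond the shading to the right.

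Ranks at starts took the strongest peak within 1000 bp of a start, so sites further off, beside a neighbour or inside the gene, were left out. Peaks within that distance that also lay near a neighbour were kept, as at MED19, MED20 and MED31. For MED25 the peaks ranked in WT and 3A were those at −806 and −810, not those at the start itself. For the 23 Mediator genes with a start peak in all lists, 7 were at least 25 points higher in 3A (CDK19, MED4, MED7, MED13L, MED17, MED18 and MED25), against 12.2% of all genes, and none lower, against 12.5%. In 7A, 4 were higher (CDK19, MED1, MED13L and MED26) and 3 lower (CDK8, MED9 and MED15), each against 12.5% of all genes. At its start MED1 moved by 44.8 points in 7A and CDK8 by −48.1. MED16 was no longer among the lower genes, since its start moved by 4.53 points in 3A and 6.80 in 7A.

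The strongest peak of a Mediator gene was in most cases at an end of that gene. It lay within 1000 bp of an outer end in 24 of 32 genes in WT, 25 of 31 in 3A and 26 of 32 in 7A. It was also within 1000 bp of an outer end or start of another protein-coding gene in 7 genes in WT, 7 in 3A and 8 in 7A. These counts were made for the Mediator genes only, so whether they differ from those of other genes is not known. Among others, this held for MED1, MED19, MED20, MED22 and MED31 in every list. The lists do not tell which gene of such a pair a peak belongs to. The plot of summits around starts shows that the lists placed their summits close together at CDK8, MED1, MED4, MED9, MED18 and MED20.

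**Figure D4:**
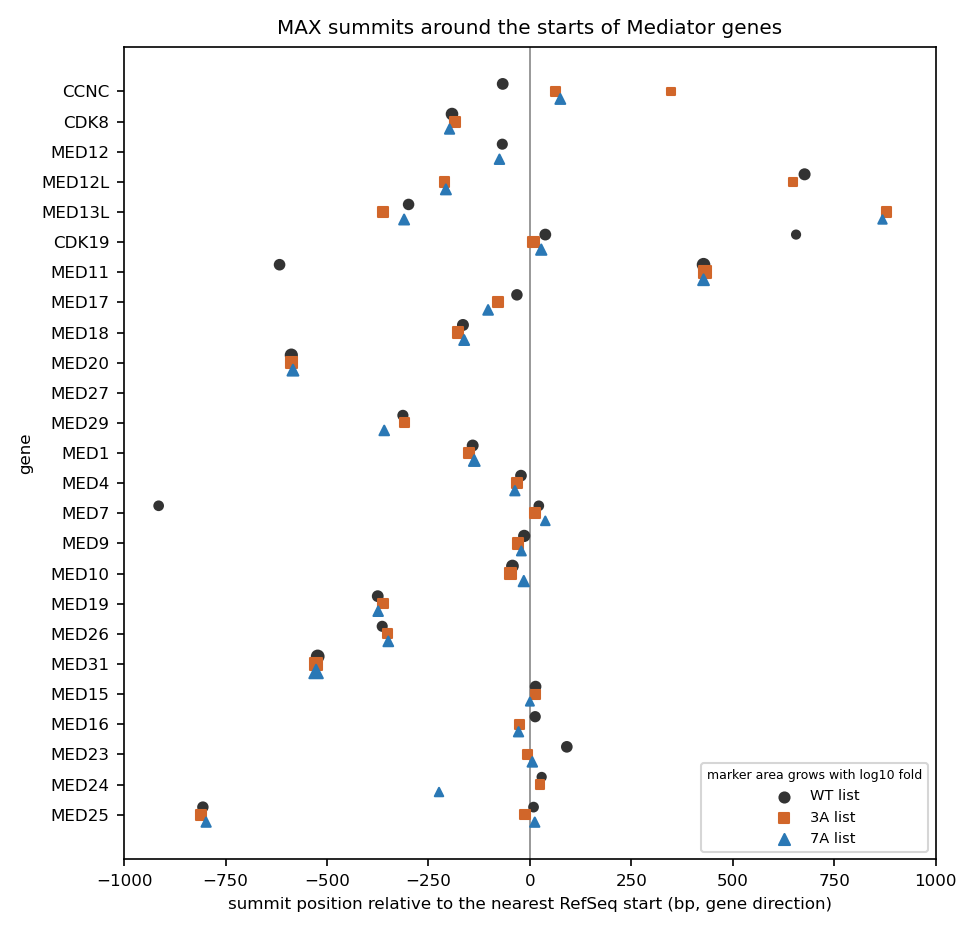
Position of every MAX summit within 1000 bp of a start (horizontal axis, bp in the direction of the gene, 0 at the nearest RefSeq start) for the 25 Mediator genes in the promoter table (vertical axis), with 1 marker per peak and list and a marker area that grows with the log10 of the fold. The summits of CDK8 sit at −192, −185 and −198 and those of MED31 at −523, −527 and −527, and MED27 has none.

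Joined across lists where they overlapped by at least 1 bp, the peaks at Mediator genes formed 59 sites. Of these 46, or 77.97%, were in all 3 lists, against 70.1% of the 23754 sites at protein-coding genes. WT alone held 6 sites, 10.2% against 17.8% over all gene sites: 1 each at MED7, MED11, MED12L, MED13L, MED24 and CDK19, with folds of 3.92 to 11.6. A further 3 sites were in WT and 7A (2 in MED13L and the MED12 start), 5.08% against 2.37% over all gene sites. In WT and 3A there were 2 (MED13L and MED26), 3.39% against 5.81%. The sites in a mutant list alone were 1 in 3A, at MED13, and 1 in 7A, at MED15. Each is 1.69%, against 1.89% in 3A alone and 0.964% in 7A alone over all gene sites. None was in 3A and 7A without WT, against 1.08%.

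The letters at the starts were next compared. The letters CACGTG were searched on both strands of the 300-base windows, and so were the related letters CACGCG, with CATGTG as well as the further form CATGCG. Of the 25 Mediator genes in the promoter table, CDK8 and MED13L held CACGTG, 8.0% against 10.9% of all 15813 genes. MED4 and MED25 held CACGCG (8.0% against 18.1%), CDK19 and MED18 held CATGCG (8.0% against 10.3%), and none held CATGTG (11.5% of all genes). Any of the 4 was in 6 of 25 genes, 24.0% against 39.8%, so that Mediator starts held these letters no more often than starts in general. Most of the Mediator windows thus held none of these letters.

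CACGTG was also read beside the summits. At CDK8 it began at −200, and the summits lay at −192, −185 and −198. At MED13L it began at −52, while the nearest summits lay at −299 in WT, −362 in 3A and −310 in 7A. In the neighbour window of SURF6, at a MED22 site, CACGTG began at −224, with the 3A summit at −210 and the 7A summit at −14. The WT summit of that site, with a fold of 50.2, lay at chr9:133336444, just beyond the window's edge at 133336438. Over all promoter windows that held a WT summit, 15.7% of 6253 held CACGTG, and the summit was a median of 11.5 bp from it. In 3A the share was 14.5% with a median of 17.5 bp, and in 7A 15.05% with 16.5 bp. CDK8 and BYSL were chosen for a summit near the letters, and the MED13L window holds no summit, so none of them was compared with these medians.

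Other factors that act with Mediator at promoters were read the same way, in lists chosen by their known role. RNA polymerase II subunits had a peak in 11 of 12 genes in every list, with the strongest WT peaks at POLR2I (97.9 in WT, 76.1 in 3A, 77.8 in 7A) and POLR2D (35.5, 36.6 and 14.6), with none at POLR2J. Of 18 general transcription factor genes, 15 had a peak in every list, with the strongest in WT at GTF2A1 (62.2, 28.3 and 30.3) and GTF2H3 (29.8, 21.3 and 21.8), with none in WT at CDK7, GTF2H2 and GTF2H4. TFIID subunits, which bind the core promoter, had a peak in 12 of 13 genes in every list, with the strongest in WT at TAF12 (44.9, 27.9 and 18.6) and TAF8 (39.3, 44.4 and 36.3), with none at TAF9. Genes of pause release and the super elongation complex had a peak in 15 of 16 in WT and 3A and 14 in 7A, with the strongest in WT at MLLT1 (58.1, 81.3 and 193.7) and NELFCD (47.4, 13.5 and 24.2), with none in WT at NELFE.

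The other lists stood at 83.3 to 93.8% in WT, so that their shares too lay above the 70.8% of all genes. In median gene percentile the Mediator genes were at 40.1 in WT and 56.3 in 3A, polymerase subunits at 40.7 and 44.4, general factors at 21.3 and 23.9, TFIID at 38.9 and 47.4 and pause release genes at 59.4 and 54.3. By at least 25 points, 0 of 11 polymerase subunits, 1 of 15 general factors, 3 of 12 TFIID subunits and 0 of 14 pause release genes were higher in 3A than in WT, and 0, 1, 3 and 2 were lower, against 12.2% and 12.5% of all genes. In 7A the counts in the same order were 3, 2, 2 and 0 higher and 2, 0, 4 and 1 lower, each against 12.4% of all genes. The differences between these lists were not tested.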

How the data were processed

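MAX was profiled by ChIP-Rx in U2OS-MYC-KO cells with WT, 3A or 7A MYC. Per the submitters' processing notes, reads were handled with tools that include cutadapt, Picard, SAMtools, Bowtie2 and MACS2; the builds named are hg38, hg19 and mm10, and no role or version is stated. For each MYC form the authors deposited 1 list of peaks in narrowPeak layout. Each peak's fold enrichment in the deposited lists is a linear ratio, next to which come a −log10 p and a −log10 q by the authors. No −log10 q was below 5.15 (WT), 5.04 (3A) or 5.69 (7A). The pooling of replicates and the control libraries are not given in the sources used here.

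Summits were placed on GRCh38.p14 genes and promoter windows from RefSeq, and positions were written counting from 1. Of the 33 Mediator genes, 25 are in the promoter table; MED6, MED8, MED13, MED14, MED21, MED22, MED28 and MED30 were not used there. A gene's strongest peak stood for it. Named with all values are the 6 strongest Mediator genes per list, those whose presence differed or that had no peak, and the kinase module; the other Mediator genes are given more briefly. The Mediator genes, the other lists and the threshold of 25 points were chosen with earlier results of these data known. No test was made, since a list has no replicates. Peak assignment, ranks, sites and the motif search were tested on simulated peaks. The software was Python 3.11.15 with matplotlib 3.10.9, SciPy 1.17.1, NumPy 2.4.6 and pandas 2.3.3.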

Additional observations from a re-analysis of the deposited data

How the results depend on the processing

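Of 117 alternative values, 89 stayed within the limits set and 28 moved. With a summit required inside the gene, 15 Mediator genes had a peak in WT, 14 in 3A and 12 in 7A, 10 had one in all lists, 17 had none, 2 had a WT peak and none in 3A and 3 had one and none in 7A. The median 3A percentile was then 63.7. With the strongest 5000 peaks of each list the counts were 8, 8 and 7, with 7 in all lists, 24 without a peak and 1 in WT and not in 7A. The median percentiles were then 74.9 in WT, 65.2 in 3A and 59.0 in 7A. With lists of equal length, 0 genes had a WT peak and none in 3A, and WT alone held 2 sites. No such counts were made over all genes for these settings. They therefore do not tell whether the Mediator shares stay above the background. Ranked by −log10 q, the median percentiles were 70.3 in WT, 68.4 in 3A and 54.7 in 7A. With this ranking and with the strongest 5000 peaks, 3A thus stood below WT, the reverse of the main setting. Ranked among genes with a peak in all lists, the medians were 40.1 in WT, 56.3 in 3A and 36.5 in 7A.

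For changes of at least 25 points, chosen as a measure after the data were seen, ranking by −log10 q gave 1 gene higher in 3A in place of 9, 0 higher in 7A in place of 1, and 2 lower in 7A in place of 4. The peak nearest to a gene end and the peak within 1000 bp of a start each gave 4 genes higher in 7A, against 13.1% and 12.5% of all genes, and 0 lower in 3A, against 13.0% and 12.5%; 4 of 31 by the first is 12.9%. Apart from what the alternatives themselves leave out, the cause was not tested. No paired analysis was possible because each list holds 1 MYC form with no replicates told apart, and for the same reason no replicate could be left out.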
